A study of Homo sapiens with 9 samples.

Results

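The SR proteins and heterogeneous nuclear ribonucleoproteins (hnRNPs) are the main families of RNA-binding proteins that decide which exons and splice sites are used. Their genes were taken as every row of the count table that mapped to a protein-coding symbol of the form SRSF plus a number or beginning with HNRNP, together with TRA2A, TRA2B, SRRM1 and SRRM2, which work beside SR proteins, and SRPK1, SRPK2 and CLK1 to CLK4, the kinases that phosphorylate them. The rule gave 49 of the 61487 genes in the table, namely 12 SR proteins, 4 SR-related coactivators, 6 kinases and 27 hnRNPs. Of these, 43 passed the filter on low counts and were tested. The other 6 (HNRNPA1L2, HNRNPCL1, HNRNPCL2, HNRNPCL3, HNRNPCL4 and HNRNPUL2-BSCL2) had 0 counts in every library. In the GENCODE 29 annotation, 100% of HNRNPUL2-BSCL2 exon bases are shared with BSCL2 and HNRNPUL2 on the same strand. Reads over more than 1 gene are not counted, so its 0 counts do not show that it is absent.

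RNA was sequenced from OVCAR4 cells, an established line from a high-grade serous carcinoma of the ovary, in 3 groups of 3 libraries. Naive cells received DMSO, isogenic Pt-resistant cells raised by continuous exposure to cisplatin received DMSO, and the same resistant cells received 5 µM EPZ015666, an inhibitor of the arginine methyltransferase PRMT5, for 5 days. The labels give all 3 groups the genotype WT, and there was no arm of naive cells with the inhibitor. Per the study's methods the replicates were wells seeded in triplicate from 1 resistant line, so the p-values rest on variation from well to well, which may be technical, and say nothing of other resistant lines.

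SR proteins carry RNA recognition motifs and a domain rich in arginine and serine, bind enhancer sequences in exons and help to recruit the spliceosome. SRPK kinases phosphorylate that domain in the cytoplasm and CLK kinases in the nucleus, which sets where SR proteins reside and how they act. Many hnRNPs bind silencers in exons and introns and oppose SR proteins at the same splice sites, and genes of both families hold very conserved exons whose inclusion sends the transcript to nonsense-mediated decay, a loop by which the proteins limit their own mRNA. PRMT5 places symmetric dimethyl marks on arginines, and spliceosomal Sm proteins and several of these RNA-binding proteins are among its known substrates. Counts per gene show neither the methylation nor the isoforms.

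Totals ranged from 14320929 to 19114811 counts per library. Of the 11 markers of serous epithelium, 10 reached 5 CPM (counts scaled to a fixed library size) in at least 1 group, and WT1 stayed under 1 CPM in every group. Several of these markers differed between naive, resistant and treated cells, in both directions. In that order FOLR1 was at 22.6, 3.91 and 10.8 CPM, CDH1 at 167, 74.2 and 50.6 CPM and KRT7 at 1929, 2333 and 1638 CPM. Of 11 markers of leukocytes, endothelium and fibroblasts, 6 stayed under 1 CPM in every group, and PECAM1, CDH5 and COL1A1 reached 5 CPM. Their summed level ran from 95.3 CPM in a treated library to 162 CPM in a naive one. PRMT5 mRNA was at 121 ± 1.48 CPM (SD, n = 3) in naive cells, 117 ± 10.1 CPM in Pt-resistant cells and 117 ± 10.6 CPM with the inhibitor. The libraries of these groups overlapped. The edgeR adjusted p was 0.625 for resistant against naive cells and 0.959 for the inhibitor against DMSO. PRMT5 activity was not measured here.

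Promoter sequences of 6 members are given first, because these genes moved by at least 1.5-fold and stand for the patterns described below: SRSF6 and SRSF7 for the SR proteins, TRA2B for the coactivators, CLK1 for the kinases, HNRNPH2 for the hnRNPs and SRSF9 as an SR protein that went the other way. Each is the 250 bases before the gene's start in RefSeq on GRCh38.p14, read 5′ to 3′ on the gene's strand. They lie at chr20:43457646-43457895 on the plus strand (SRSF6), chr2:38751495-38751744 on the minus strand (SRSF7), chr3:185938015-185938264 on the minus strand (TRA2B), chr2:200864659-200864908 on the minus strand (CLK1), chrX:101407972-101408221 on the plus strand (HNRNPH2) and chr12:120469749-120469998 on the minus strand (SRSF9). Capitals mark the GC box GGGCGG, the CCAAT box CCAAT and the E-box CACGTG, each on either strand.
SRSF6: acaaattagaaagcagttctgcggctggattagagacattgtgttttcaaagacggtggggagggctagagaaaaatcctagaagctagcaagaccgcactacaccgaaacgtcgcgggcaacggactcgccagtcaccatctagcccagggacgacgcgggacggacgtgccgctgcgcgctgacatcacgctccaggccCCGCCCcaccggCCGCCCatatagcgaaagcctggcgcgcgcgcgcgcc
SRSF7: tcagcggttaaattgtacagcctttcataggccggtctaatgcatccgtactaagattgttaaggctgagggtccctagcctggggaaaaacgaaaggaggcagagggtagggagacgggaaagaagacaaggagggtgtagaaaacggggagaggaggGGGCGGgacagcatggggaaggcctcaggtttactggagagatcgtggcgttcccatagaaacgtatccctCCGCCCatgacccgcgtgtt
TRA2B: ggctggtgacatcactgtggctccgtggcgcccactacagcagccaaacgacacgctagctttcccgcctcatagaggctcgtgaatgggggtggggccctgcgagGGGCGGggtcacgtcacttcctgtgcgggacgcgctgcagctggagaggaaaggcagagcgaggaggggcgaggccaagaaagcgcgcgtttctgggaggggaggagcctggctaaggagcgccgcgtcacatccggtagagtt
CLK1: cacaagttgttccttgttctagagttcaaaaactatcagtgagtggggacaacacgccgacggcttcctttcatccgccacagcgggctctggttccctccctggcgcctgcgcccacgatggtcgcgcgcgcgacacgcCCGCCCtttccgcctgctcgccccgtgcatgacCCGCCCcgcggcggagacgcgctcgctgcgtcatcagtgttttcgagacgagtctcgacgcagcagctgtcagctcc
HNRNPH2: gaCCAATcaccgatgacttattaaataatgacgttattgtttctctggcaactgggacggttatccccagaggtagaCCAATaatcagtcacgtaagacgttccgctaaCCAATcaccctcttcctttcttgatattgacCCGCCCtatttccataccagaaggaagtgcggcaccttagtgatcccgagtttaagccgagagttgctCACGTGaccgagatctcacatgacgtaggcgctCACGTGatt
SRSF9: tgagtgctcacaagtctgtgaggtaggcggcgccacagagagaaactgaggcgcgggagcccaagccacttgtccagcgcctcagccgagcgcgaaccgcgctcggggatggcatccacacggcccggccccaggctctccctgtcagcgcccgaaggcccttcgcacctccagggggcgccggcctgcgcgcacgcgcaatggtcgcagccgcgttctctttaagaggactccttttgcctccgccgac

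SRSF6, SRSF7 and CLK1 held 2 GC boxes each in this stretch and TRA2B held 1. HNRNPH2 held 1 GC box, 3 CCAAT boxes and 2 E-boxes. The SRSF9 stretch, which had the highest share of G and C at 68.4%, held none of the 7 motifs searched. Over the 300 bases from 250 before to 50 after the start, 39 of the 43 tested members had an entry. Of these, 26 (66.7%) held the GC box, beside 44.6% of all 27305 promoters in the same table. For CCAAT the shares were 43.6% and 35.7%, for the E-box 23.1% and 7.43%, for the TATA box TATAAA 12.8% and 11.95%, and for the ETS site CCGGAAG 12.8% and 10.7%. The cyclic AMP response element TGACGTCA and the palindromic NRF1 site were in none of the 39, beside 1.98% and 1.36% of all promoters. The members' promoters had 63.7% G and C on average, against 57.2% over all promoters, and GC-rich motifs are more frequent in GC-rich sequence. The set of all promoters was not limited to genes tested here, as the members were, so the shares compare unlike sets. A match is a description of letters and not a binding site.

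Levels between genes are compared here as CPM per kilobase of the longest principal transcript. On that scale HNRNPA2B1, which binds UAG motifs, had the highest mean level in naive cells at 275 CPM per kb, followed by HNRNPAB at 243, HNRNPC at 160.0, SRSF9 at 141 and HNRNPK at 137 CPM per kb. The lowest tested members were CLK2 at 5.32, SRSF12 at 1.45 and HNRNPA1L3 at 0.978 CPM per kb. HNRNPA1, usually described as one of the most abundant hnRNPs, stood at only 36.0 CPM per kb. The annotation lists 74 pseudogenes named after HNRNPA1, and reads that map to several places are left out of STAR's gene counts, so the level of this gene may be understated. The order of the members changed most for SRSF9, the SR protein also known as SRp30c. It ranked 4 of 43 per kilobase in naive cells, 17 in Pt-resistant cells and 14 with the inhibitor. SRSF7 moved from rank 10 to 4 and then to 11, and TRA2B from 13 to 6 and then to 12.

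Setting Pt-resistant beside naive cells addresses which of these mRNAs differed after resistance had been acquired. SR protein mRNAs were mostly higher in the resistant cells. Of the 12 SR proteins, 9 rose and 2 (SRSF9 and SRSF12) fell, and SRSF8 did not pass the test at an adjusted p of 0.05 (edgeR quasi-likelihood test, Benjamini-Hochberg over 14630 genes). Of the coactivators, TRA2A and TRA2B rose and SRRM1 fell, and of the kinases CLK1, CLK4 and SRPK2 rose and CLK2 fell. The 21 tested hnRNPs were split, with 8 higher, 5 lower and 8 not called. In all, 22 of the 43 members were higher, where 29.8% of all genes were called higher, and 9 were lower, where 29.4% of all genes were called lower. The 31 called in either direction stood beside 59.1% of all genes. All 3 resistant libraries lay above all 3 naive ones for 24 members and below them for 9, beside 31.2% and 31.3% of all genes. The median log2 fold change was 0.39 over the SR proteins, 0.34 over the coactivators, 0.19 over the kinases and 0.13 over the hnRNPs, beside 0.010 over all genes tested. The difference between the role groups was not tested.

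With a further limit of at least 1.5-fold, 7 members were higher (SRSF5, SRSF6, SRSF7, SRSF11, TRA2A, TRA2B and HNRNPH2) and 2 were lower (SRSF9 and SRSF12), beside 14.3% and 16.4% of all genes. Every other called member moved by less than 1.5-fold. The share of members past this limit in either direction, 9 of 43 or 20.9%, stood beside 30.7% of all genes.

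**Figure D1:**
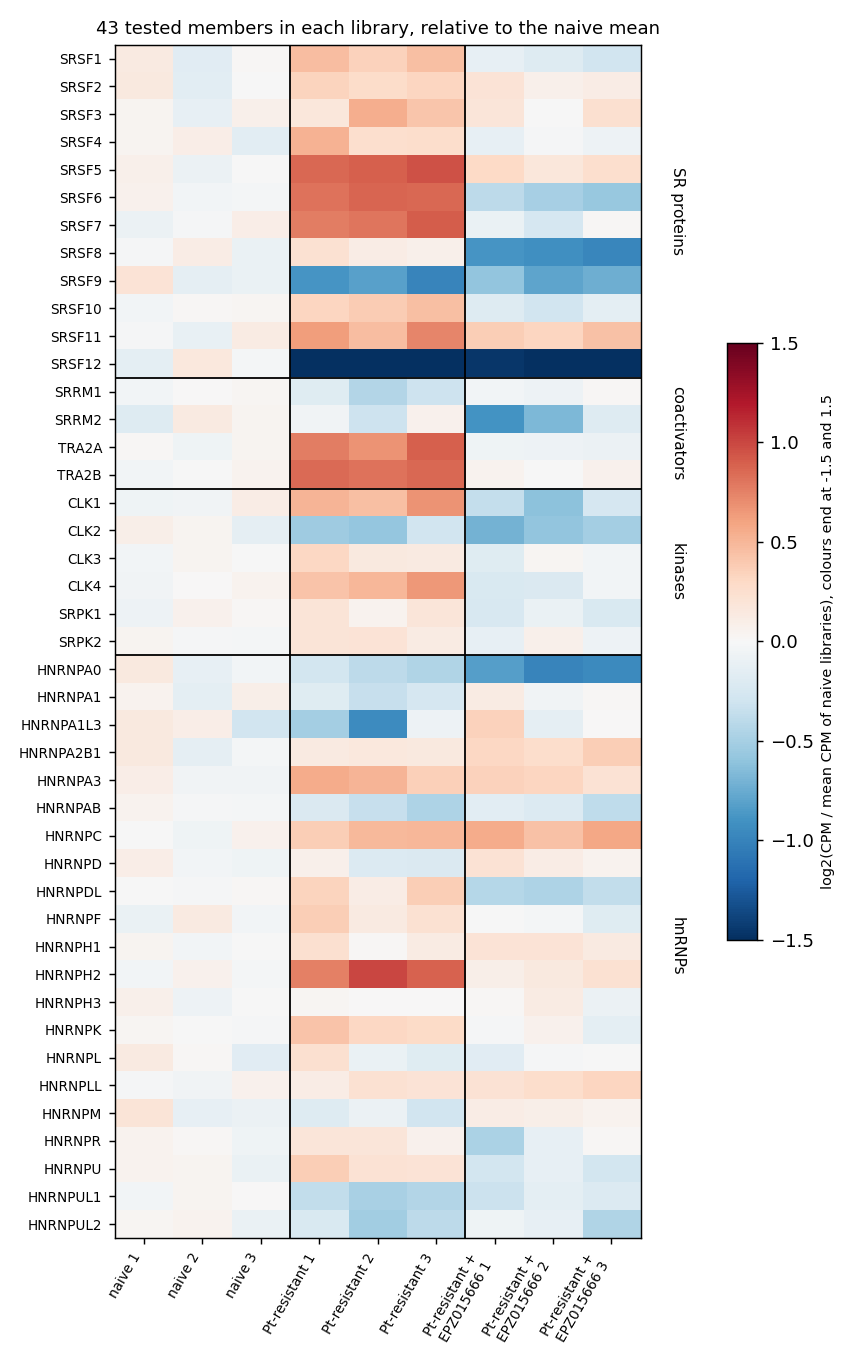
Level of the 43 tested members in each of the 9 libraries as the log2 ratio of CPM to the mean of the naive libraries (colour, ending at -1.5 and 1.5; SRSF12 lies beyond the lower end in all 3 Pt-resistant and 2 of the 3 inhibitor-treated libraries). Rows are genes grouped by role and columns are libraries. SRSF5, SRSF6, SRSF7, TRA2A, TRA2B and HNRNPH2 are red in all 3 Pt-resistant libraries, and SRSF9 and SRSF12 are blue there.

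SRSF5 (SRp40), which binds exonic enhancers, was at 124, 111 and 118 CPM in the naive libraries, 213, 218 and 228 CPM in the Pt-resistant libraries and 144, 132 and 139.8 CPM in the inhibitor-treated libraries. The 3 groups did not overlap, with the Pt-resistant libraries highest. Its level was 1.87 times that of naive cells, a log2 fold change of 0.90 ± 0.075 (SE, edgeR adjusted p = 4.36e-10).

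SRSF6 (SRp55), which promotes exon inclusion through enhancer binding, was at 145, 135 and 135 CPM in the naive libraries, 244, 253 and 251 CPM in the Pt-resistant libraries and 106, 97.8 and 92.9 CPM in the inhibitor-treated libraries. Again no library of one group overlapped another, and here the inhibitor-treated cells were the lowest. Pt-resistant cells held 1.80 times the naive level (log2 0.85 ± 0.075, edgeR adjusted p = 1.04e-09).

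SRSF7 (9G8), the SR protein with a zinc knuckle that also serves in mRNA export, measured 242, 254 and 276 CPM in the naive libraries, 439, 447 and 484 CPM in the Pt-resistant libraries and 240.3, 216 and 259.9 CPM in the inhibitor-treated libraries. Naive and inhibitor-treated libraries overlapped, and both lay below all the Pt-resistant ones. The rise in resistant cells was 1.78-fold (log2 0.83 ± 0.082, edgeR adjusted p = 7.49e-09).

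SRSF11 (p54), which interacts with U2AF at the 3′ splice site, was at 186, 174 and 205 CPM in the naive libraries, 290.0, 259.7 and 314 CPM in the Pt-resistant libraries and 244, 236 and 255 CPM in the inhibitor-treated libraries. The groups were separate, with treated cells in the middle. It rose 1.53-fold in resistant cells (log2 0.61 ± 0.083, edgeR adjusted p = 1.01e-06), just over the 1.5-fold limit.

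TRA2A and TRA2B are paralogs that bind GAA-rich enhancers and promote exon inclusion, and both rose. TRA2A was at 40.3, 38.0 and 40.8 CPM in the naive libraries, 67.4, 63.6 and 73.9 CPM in the Pt-resistant libraries and 38.0, 37.6 and 37.2 CPM in the inhibitor-treated libraries. TRA2B was at 258, 265 and 277 CPM in the naive libraries, 481, 469.7 and 485 CPM in the Pt-resistant libraries and 276, 266 and 279.8 CPM in the inhibitor-treated libraries. For both, each Pt-resistant library exceeded every other library, and naive and treated libraries lay close together. The rise was 1.72-fold for TRA2A (log2 0.78 ± 0.082, edgeR adjusted p = 1.86e-08). For TRA2B it was 1.79-fold (log2 0.84 ± 0.072, edgeR adjusted p = 5.89e-10).

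SRSF1, SRSF2, SRSF3, SRSF4 and SRSF10 rose by less than 1.5-fold. SRSF1, the prototype of the family and a proto-oncogene, was at 136, 110.3 and 126 CPM in the naive libraries, 171, 157 and 169 CPM in the Pt-resistant libraries and 114, 109 and 102 CPM in the inhibitor-treated libraries. Its Pt-resistant libraries were above all the others, while naive and treated libraries overlapped in part. It rose 1.34-fold (log2 0.42 ± 0.082, edgeR adjusted p = 0.000124). In GENCODE 29, 56.6% of the SRSF1 exon bases are shared with another gene on the same strand, AC015813.2, and reads over both are not counted for either, so its level may be understated in all groups.

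SRSF10 (SRp38), which turns into a general splicing repressor when dephosphorylated in mitosis or heat shock, was at 161, 167 and 168 CPM in the naive libraries, 207, 216 and 225 CPM in the Pt-resistant libraries and 144, 135 and 149 CPM in the inhibitor-treated libraries. The groups were apart, with resistant cells highest, and the rise was 1.31-fold (log2 0.39 ± 0.074, edgeR adjusted p = 8.24e-05). SRSF2 (SC35), a core protein of early spliceosome assembly, rose by 0.31 on the log2 scale (edgeR adjusted p = 0.00188). SRSF3, the smallest SR protein, rose by 0.39 (edgeR adjusted p = 0.000935), and SRSF4 by 0.35 (edgeR adjusted p = 0.00131). For SRSF2, 36.7% of exon bases overlap MFSD11 on the other strand, which matters only if strand was not used in counting.

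SRSF9 and SRSF12 fell. SRSF9, which shares targets with SRSF1, was at 195, 155 and 158 CPM in the naive libraries, 91.9, 96.7 and 85.1 CPM in the Pt-resistant libraries and 112, 98.3 and 102 CPM in the inhibitor-treated libraries. All naive libraries were above all others. The level in resistant cells was 1.86-fold lower (log2 -0.89 ± 0.09, edgeR adjusted p = 9.39e-09). In GENCODE 29, 46.2% of its exon bases overlap GATC on the other strand, and the sources used here do not say which strand column the counts came from.

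SRSF12 (SRrp35), a minor family member that antagonises other SR proteins, was the least abundant SR protein at 4.72, 5.84 and 5.10 CPM in the naive libraries, 1.08, 0.745 and 0.675 CPM in the Pt-resistant libraries and 1.89, 1.80 and 1.49 CPM in the inhibitor-treated libraries. Its lowest counts were 13 reads in a Pt-resistant library and 81 in a naive one. The groups did not overlap, and the resistant level was 6.26-fold lower than the naive one (log2 -2.65 ± 0.24, 95% interval -3.14 to -2.16, edgeR adjusted p = 1.52e-09), the largest change of any member.

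**Figure D2:**
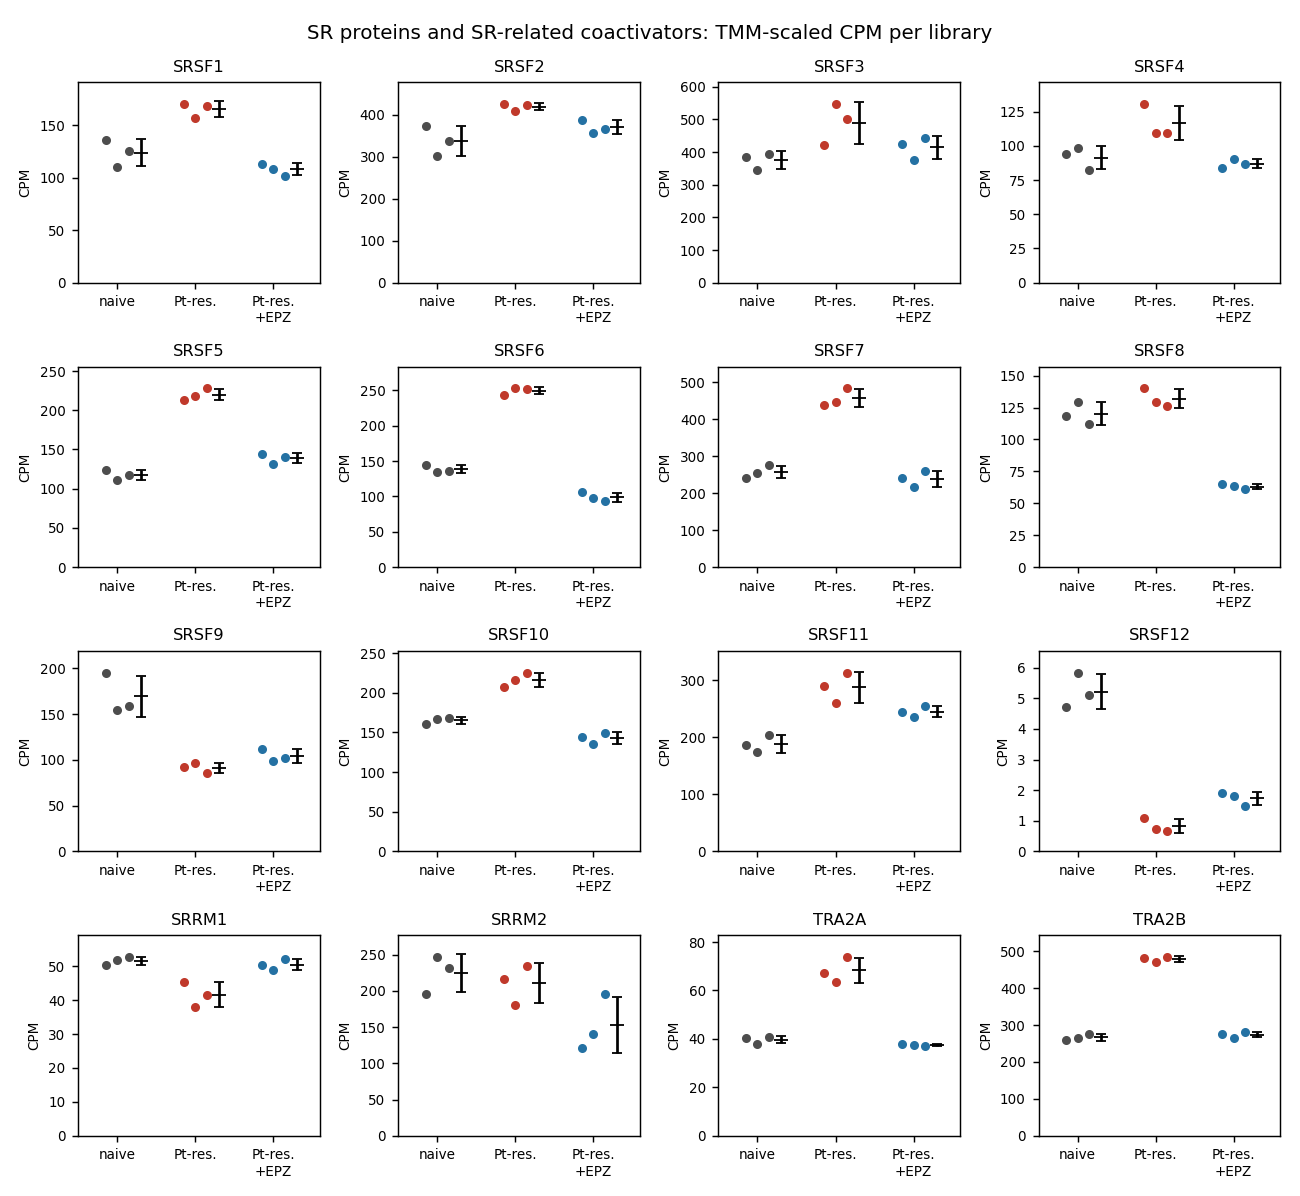
TMM-scaled CPM (y axis, from 0) of the 12 SR proteins and 4 coactivators in naive, Pt-resistant and Pt-resistant EPZ015666-treated cells. Each point is a library, and the black mark and bar are the mean and SD (n = 3). SRSF6 reached 244 to 253 CPM in Pt-resistant cells, above the 135 to 145 CPM of naive cells and the 92.9 to 106 CPM of treated cells.

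Among the kinases, CLK1, which phosphorylates SR proteins in the nucleus and is itself induced when splicing is stressed, was at 75.1, 75.5 and 84.3 CPM in the naive libraries, 112, 107 and 125 CPM in the Pt-resistant libraries and 61.1, 51.2 and 65.8 CPM in the inhibitor-treated libraries. The Pt-resistant libraries were highest and the treated ones lowest, without overlap. CLK1 rose 1.46-fold in resistant cells (log2 0.55 ± 0.091, edgeR adjusted p = 1.43e-05). Its paralog CLK4 was at 43.5, 45.5 and 46.9 CPM in the naive libraries, 60.8, 63.8 and 71.2 CPM in the Pt-resistant libraries and 38.7, 38.9 and 44.2 CPM in the inhibitor-treated libraries. Resistant libraries exceeded all others, and the rise was 1.44-fold (log2 0.53 ± 0.085, edgeR adjusted p = 1.16e-05). CLK2 went the other way, at 10.3 ± 0.802 CPM in naive and 7.46 ± 0.836 CPM in resistant cells (log2 -0.46 ± 0.13, edgeR adjusted p = 0.00412). SRPK2 passed the test by a small margin (log2 0.18 ± 0.075, edgeR adjusted p = 0.0495), and that call was lost under RLE scaling, DESeq2 and most of the fits that left out a library. SRPK1 had a log2 fold change of 0.14 ± 0.076 and CLK3 of 0.20 ± 0.088, neither called (edgeR adjusted p = 0.107 and 0.0566).

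HNRNPH2, which binds G-runs near splice sites, had the largest change of the tested hnRNPs. It was at 83.3, 89.8 and 84.3 CPM in the naive libraries, 145, 171 and 158 CPM in the Pt-resistant libraries and 91.2, 95.2 and 100.1 CPM in the inhibitor-treated libraries. Resistant libraries were above all others and naive libraries below all treated ones. The rise was 1.84-fold (log2 0.88 ± 0.079, edgeR adjusted p = 1.55e-09). Its close paralog HNRNPH1 had 79.3 ± 2.29 CPM in naive and 86.7 ± 6.59 CPM in resistant cells (log2 0.13 ± 0.077, edgeR adjusted p = 0.157) and was not called. The ratio of HNRNPH2 to HNRNPH1 counts was 1.08 ± 0.0725 in naive cells, 1.84 ± 0.291 in resistant cells and 1.06 ± 0.0807 in treated cells (SD, n = 3). Reads shared by the near-identical coding regions of these paralogs may be left out of both, and 16.3% of HNRNPH2 exon bases overlap another gene on its strand.

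The other hnRNPs that rose were HNRNPA3 (0.47 on the log2 scale), HNRNPC (0.46), which covers uridine tracts and keeps Alu exons silent, HNRNPK (0.34), which binds C-rich RNA, HNRNPDL (0.28), HNRNPU (0.27), a nuclear scaffold protein, HNRNPF (0.25) and HNRNPLL (0.18), with edgeR adjusted p-values from 1.64e-05 for HNRNPC to 0.039 for HNRNPLL. The calls of HNRNPLL and HNRNPF were lost when some single libraries were left out, among them naive library 1 (edgeR adjusted p = 0.0885 and 0.0773). Those that fell were HNRNPUL1 (-0.43), HNRNPUL2 (-0.38), HNRNPA0 (-0.37), HNRNPAB (-0.34) and HNRNPA1 (-0.26), with edgeR adjusted p-values from 2.83e-05 to 0.00774. For HNRNPUL2, 44.1% of exon bases are shared with HNRNPUL2-BSCL2 on the same strand in GENCODE 29, so its level may be understated. HNRNPA1 is the classical opponent of SRSF1 at shared splice sites. The ratio of SRSF1 to HNRNPA1 counts was 0.884, 0.823 and 0.801 in the naive libraries, 1.31, 1.35 and 1.36 in the resistant libraries and 0.702, 0.761 and 0.681 in the treated libraries. The resistant libraries had the highest ratio, and the treated ones lay below the naive ones without overlap. The ratio of SRSF9 to HNRNPA1 went the other way in resistant cells. It ran from 1.01 to 1.27 in naive, 0.687 to 0.83 in resistant and 0.682 to 0.695 in treated libraries. That of SRSF6 to HNRNPA1 moved as for SRSF1, at 0.863 to 1.01, 1.87 to 2.17 and 0.621 to 0.685 in the same order. The levels of SRSF1 and HNRNPA1 may both be understated, as given above, so the size of these ratios is uncertain.

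Setting EPZ015666 beside DMSO addresses which of these mRNAs changed in resistant cells when PRMT5 was inhibited. SR protein, coactivator and kinase mRNAs were mostly lower with the inhibitor. Of the 12 SR proteins, 9 fell and SRSF12 rose. TRA2A, TRA2B and SRRM2 fell and SRRM1 rose, and 5 of the 6 kinases fell, with CLK2 not called. Of the 21 hnRNPs, 7 fell and 4 rose. In all, 24 of 43 members were lower, where 30.5% of all genes were called lower, and 6 were higher, where 31.9% of all genes were called higher. The 30 called in either direction stood beside 62.4% of all genes. Treated libraries lay entirely below the DMSO libraries for 24 members and entirely above them for 7, beside 32.8% and 33.7% of all genes. The median log2 fold change was -0.51 over the SR proteins, -0.64 over the coactivators, -0.30 over the kinases and 0.052 over the hnRNPs, beside 0.0057 over all genes. At 1.5-fold or more, 12 members were lower (SRSF1, SRSF5, SRSF6, SRSF7, SRSF8, SRSF10, TRA2A, TRA2B, CLK1, CLK4, HNRNPDL and HNRNPH2) and 1 (SRSF12) was higher, beside 15.2% and 19.8% of all genes. These 13 members stood beside 35% of all genes that passed in either direction. This comparison shares the Pt-resistant DMSO libraries with the comparison above, so a library that is high by chance raises one difference and lowers the other, and no agreement between them is read.

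SRSF6 had the largest fall of any member. From the library values given above, its level dropped 2.53-fold under the inhibitor (log2 -1.34 ± 0.076, edgeR adjusted p = 5.13e-13). SRSF7 fell 1.91-fold (log2 -0.93 ± 0.082, edgeR adjusted p = 9.3e-10). SRSF5 fell 1.59-fold (log2 -0.67 ± 0.075, edgeR adjusted p = 5.3e-08). For these 3 SR proteins every treated library was below every Pt-resistant DMSO library.

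SRSF8 (SRp46), encoded by a retrogene related to SRSF2, changed in a different way. It was at 119, 129.7 and 112 CPM in the naive libraries, 140.2, 129.7 and 126 CPM in the Pt-resistant libraries and 65.0, 63.3 and 60.8 CPM in the inhibitor-treated libraries. Naive and resistant libraries overlapped, and the treated ones lay far below both. The fall under the inhibitor was 2.10-fold (log2 -1.07 ± 0.08, edgeR adjusted p = 5.82e-11), while between resistant and naive cells the log2 fold change was 0.14 ± 0.077 and not called (edgeR adjusted p = 0.129).

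SRSF1 fell 1.53-fold (log2 -0.62 ± 0.082, edgeR adjusted p = 7.39e-07) and SRSF10 fell 1.51-fold (log2 -0.60 ± 0.074, edgeR adjusted p = 2.21e-07). SRSF4 decreased by 0.42 on the log2 scale (edgeR adjusted p = 0.000181). The falls of SRSF3 and SRSF11 were small, with log2 fold changes of -0.24 ± 0.092 and -0.23 ± 0.082 (edgeR adjusted p = 0.025 and 0.0166). Without Pt-resistant library 3 neither passed the test (edgeR adjusted p = 0.0679 and 0.118), nor did they without treated library 2 (edgeR adjusted p = 0.14 and 0.063). SRSF3 also lost its call without Pt-resistant library 2 (edgeR adjusted p = 0.166), and its treated and DMSO libraries overlapped. SRSF2 and SRSF9 were not called, with log2 fold changes of -0.18 ± 0.08 and 0.19 ± 0.09 (edgeR adjusted p = 0.056 and 0.067). SRSF12 rose 2.08-fold, from 0.834 ± 0.217 CPM to 1.73 ± 0.213 CPM (log2 1.06 ± 0.28, 95% interval 0.48 to 1.64, edgeR adjusted p = 0.0022).

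**Figure D3:**
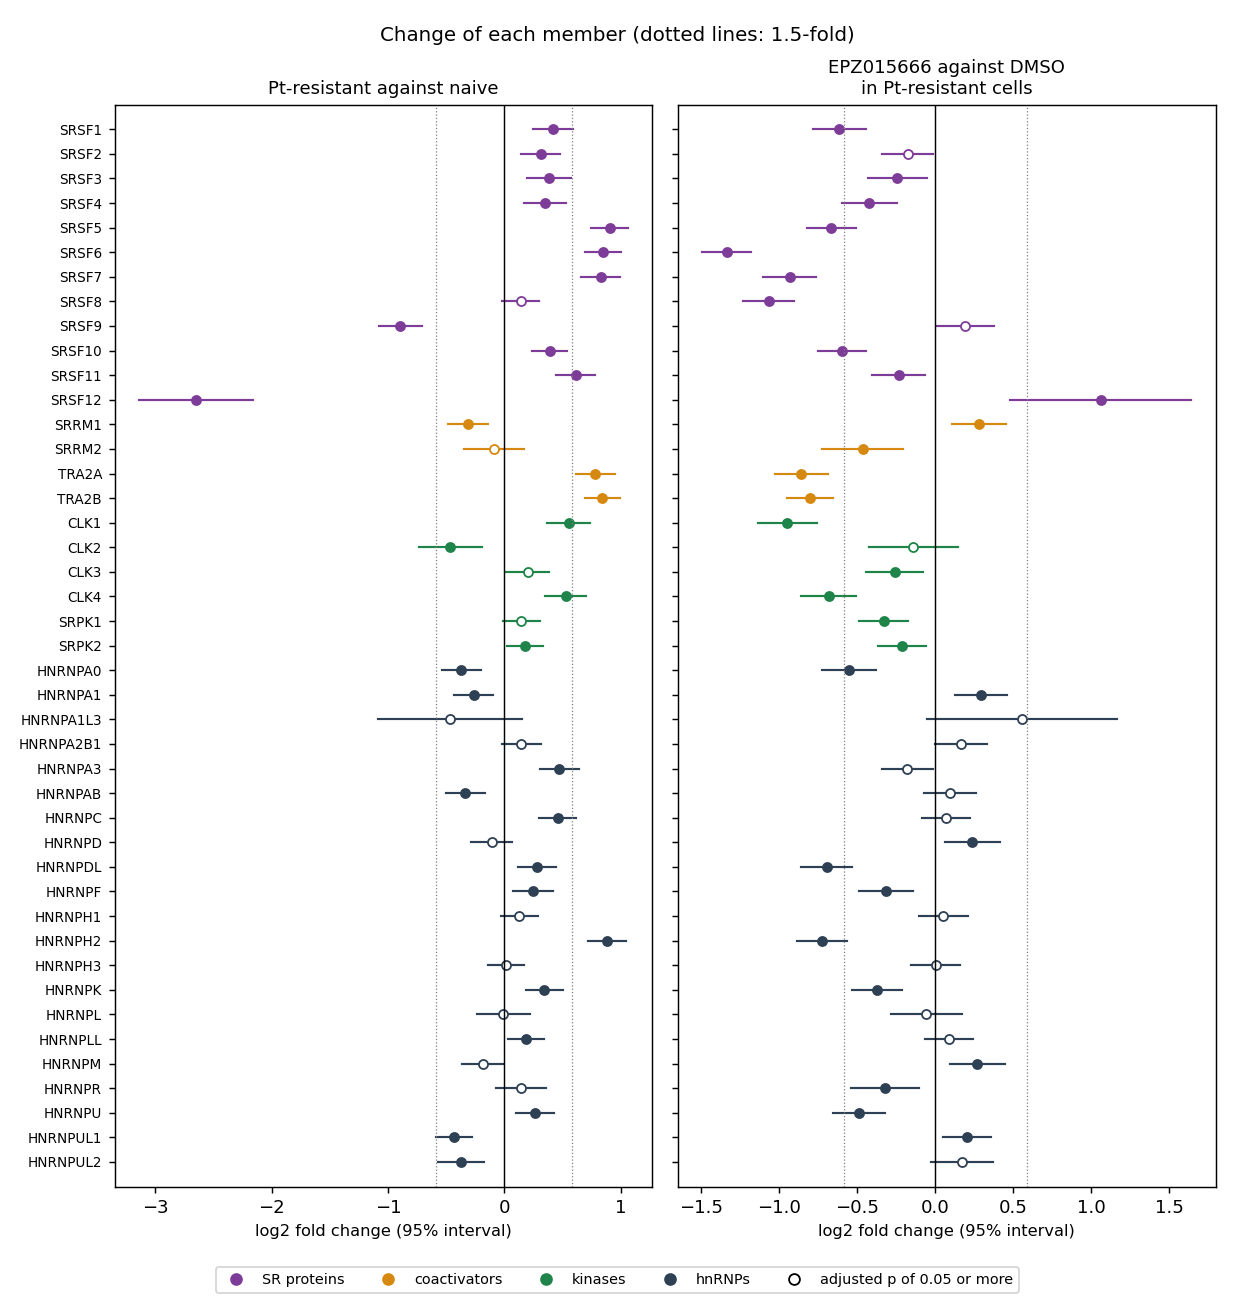
Log2 fold change of each tested member (points) with its 95% interval (lines) in Pt-resistant against naive cells (left) and in EPZ015666 against DMSO (right), in the colour of its role group. Open points had an adjusted p of 0.05 or more, and dotted lines mark 1.5-fold. The SR proteins sit mostly right of 0 on the left (9 of 12 called higher) and left of 0 on the right (9 of 12 called lower), and the 2 panels share the Pt-resistant DMSO libraries.

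The coactivators TRA2A and TRA2B fell 1.82-fold (log2 -0.86 ± 0.082, edgeR adjusted p = 3.69e-09) and 1.75-fold (log2 -0.80 ± 0.072, edgeR adjusted p = 1.15e-09). SRRM2, the scaffold of nuclear speckles, had the widest spread of the group, at 217, 181 and 235 CPM in the resistant and 121, 141 and 196 CPM in the treated libraries. These values overlapped. Its fall (log2 -0.47 ± 0.13, edgeR adjusted p = 0.00264) did not pass in DESeq2 (adjusted p = 0.0548). SRRM1, a coactivator associated with the exon junction complex, rose by 0.28 on the log2 scale (edgeR adjusted p = 0.00572).

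CLK1 fell 1.93-fold with the inhibitor (log2 -0.95 ± 0.092, edgeR adjusted p = 4.75e-09) and CLK4 fell 1.61-fold (log2 -0.68 ± 0.086, edgeR adjusted p = 2.8e-07). SRPK1, which primes SR proteins for nuclear import, changed by -0.33 ± 0.076 on the log2 scale (edgeR adjusted p = 0.000595). CLK3 and SRPK2 fell by less, with log2 fold changes of -0.26 ± 0.088 and -0.21 ± 0.075 (edgeR adjusted p = 0.0134 and 0.0169). Both of these calls were lost without treated library 1 (edgeR adjusted p = 0.0827 and 0.0965). For 5 of the 6 kinases all treated libraries were below all resistant ones.

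HNRNPDL, a paralog of HNRNPD that binds AU-rich RNA, was at 175, 175 and 179 CPM in the naive libraries, 223, 189.6 and 228 CPM in the Pt-resistant libraries and 131, 128 and 137 CPM in the inhibitor-treated libraries. Treated libraries were lowest, and the fall against the DMSO cells was 1.62-fold (log2 -0.70 ± 0.079, edgeR adjusted p = 6.32e-08). HNRNPH2 fell 1.65-fold (log2 -0.73 ± 0.079, edgeR adjusted p = 3.03e-08). HNRNPA0 fell in both comparisons, from 222 ± 21.1 CPM in naive to 172 ± 10.4 CPM in resistant and 117 ± 6.85 CPM in treated cells (log2 -0.55 ± 0.083 under the inhibitor, edgeR adjusted p = 3.66e-06). HNRNPU, HNRNPK, HNRNPF and HNRNPR fell as well, by 0.49, 0.37, 0.31 and 0.32 on the log2 scale. The fall of HNRNPR was lost without treated library 1, the lowest of its group (edgeR adjusted p = 0.113).

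The hnRNPs that rose with the inhibitor were HNRNPA1 (log2 0.29 ± 0.081, edgeR adjusted p = 0.00315), HNRNPM, HNRNPD and HNRNPUL1. HNRNPA1 was at 154, 134 and 157 CPM in the naive, 130.4, 116 and 124 CPM in the resistant and 162, 143 and 149.7 CPM in the treated libraries, with the resistant ones below all others. The rises of HNRNPM (0.27), HNRNPD (0.24) and HNRNPUL1 (0.21) were lost without Pt-resistant library 3 (edgeR adjusted p = 0.0582, 0.111 and 0.0639). HNRNPH3, another paralog of the H and F group, had 228 ± 11.5 CPM, 230.3 ± 1.77 CPM and 231 ± 16.3 CPM in the 3 groups, and its 95% interval for the inhibitor was -0.15 to 0.16 on the log2 scale. HNRNPL, which binds CA repeats, had intervals of -0.24 to 0.22 between resistant and naive cells and -0.29 to 0.17 for the inhibitor.

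Against naive cells, the treated resistant cells had fewer called members. Of 43, 7 were higher, where 32.2% of all genes were called higher, and 15 were lower, where 31.2% of all genes were called lower. The 22 called in either direction stood beside 63.4% of all genes. Libraries of the groups were separate for 8 members that were higher and 14 that were lower in treated cells, beside 33.6% and 32.8% of all genes. None was higher by 1.5-fold (18.8% of all genes were), and 5 were lower by at least that (SRSF8, SRSF9, SRSF12, CLK2 and HNRNPA0, beside 17.5% of all genes and 36.3% in either direction). This comparison shares libraries with both others. Several members with large changes in those were close to the naive level, with 95% intervals on the log2 scale of -0.28 to 0.062 for SRSF7, -0.25 to 0.094 for TRA2A, -0.11 to 0.19 for TRA2B, -0.34 to 0.024 for CLK4 and -0.0096 to 0.32 for HNRNPH2. None of these 5 was called. Even so, all treated libraries lay above all naive ones for HNRNPH2 and below all naive ones for TRA2A. Other members with such changes did differ from naive. SRSF6 was below naive (log2 -0.49 ± 0.076, edgeR adjusted p = 5.76e-06), as was CLK1 (log2 -0.40 ± 0.093, edgeR adjusted p = 0.000657). HNRNPDL (log2 -0.42 ± 0.079, edgeR adjusted p = 7.42e-05), SRSF10 (log2 -0.21 ± 0.074, edgeR adjusted p = 0.0164) and SRSF1 (log2 -0.20 ± 0.083, edgeR adjusted p = 0.0404) were also below it. SRSF5 stayed above naive without overlap (log2 0.24 ± 0.076, edgeR adjusted p = 0.0085).

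SRSF11 was above naive in treated cells (log2 0.38 ± 0.083, edgeR adjusted p = 0.000365), and so were HNRNPC (log2 0.53 ± 0.076, edgeR adjusted p = 2.04e-06), HNRNPA2B1 (log2 0.31 ± 0.08, edgeR adjusted p = 0.00165) and HNRNPA3 (log2 0.29 ± 0.08, edgeR adjusted p = 0.00268). Of these 4, HNRNPA2B1 had not been called in resistant against naive cells (log2 0.15 ± 0.08, edgeR adjusted p = 0.122). SRSF9 remained 1.63-fold lower (log2 -0.70 ± 0.089, edgeR adjusted p = 3.22e-07) and SRSF12 was lower too (log2 -1.59 ± 0.21, edgeR adjusted p = 7.24e-07). SRSF8 was 1.90-fold lower (log2 -0.93 ± 0.08, edgeR adjusted p = 4.7e-10) and HNRNPA0 was 1.90-fold lower (log2 -0.92 ± 0.083, edgeR adjusted p = 1.04e-09).

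Summed over its genes, each role group showed how these changes added up. The 12 SR proteins together took 2167, 1986 and 2118 CPM in the naive libraries, 2776, 2846 and 2917 CPM in the resistant libraries and 2068, 1912 and 2059.6 CPM in the treated libraries. Resistant cells were above all others, and naive and treated cells overlapped. The coactivators summed to 583 ± 32.9, 799 ± 42.6 and 514 ± 44.1 CPM and the kinases to 474 ± 9.39, 568 ± 17.8 and 421 ± 14.9 CPM in naive, resistant and treated cells (SD, n = 3). The hnRNPs summed to 5231 ± 205 CPM, 5619 ± 179.8 CPM and 5268 ± 69.8 CPM in the same order, a narrower range in relative terms. In bulk RNA, fewer cells of a kind and less RNA per cell cannot be told apart.

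**Figure D4:**
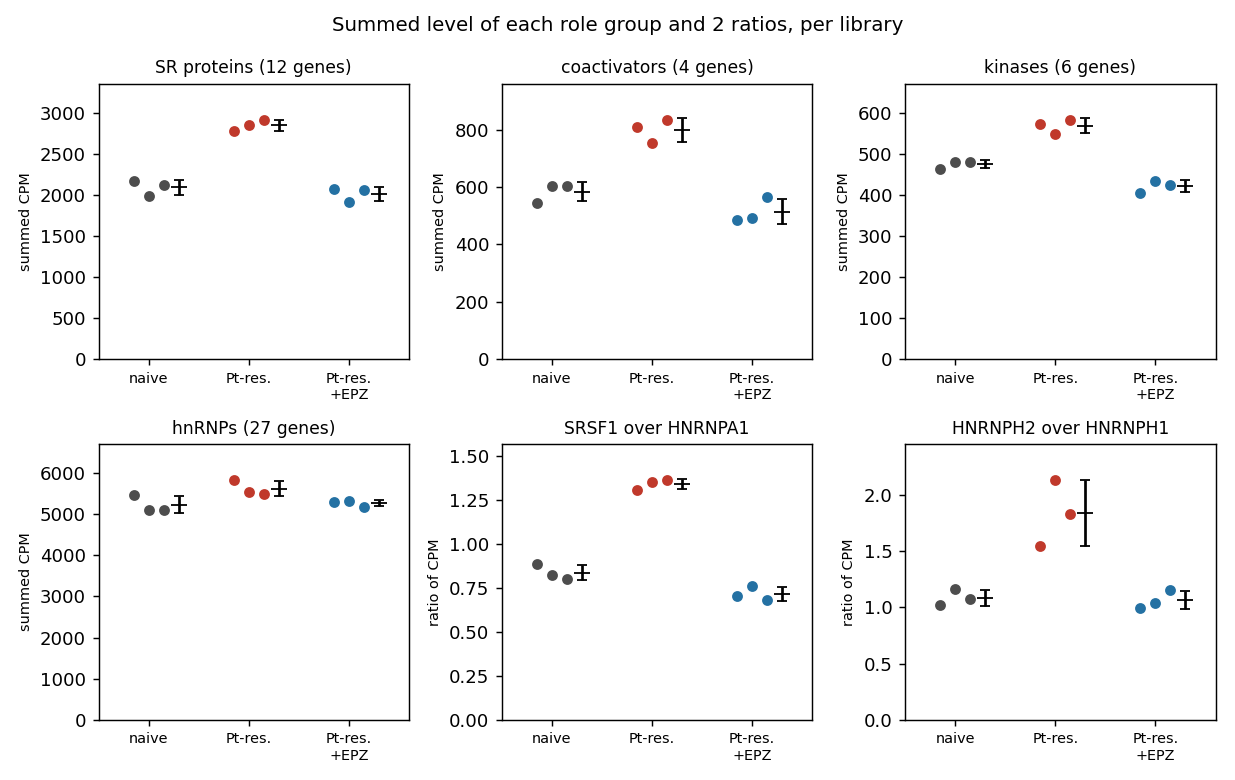
Summed CPM of the SR proteins, coactivators, kinases and hnRNPs, and the ratios of SRSF1 to HNRNPA1 and of HNRNPH2 to HNRNPH1 counts, in each library (points) with the mean and SD of each group (black, n = 3). All y axes start at 0. The SR protein sum was 2846 ± 70.7 CPM in Pt-resistant cells, above 2090 ± 93.5 CPM in naive and 2013 ± 87.8 CPM in treated cells.

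Measures of other biology differed along with these groups. Of 10 proliferation genes, all 10 were lower in resistant than in naive cells, where 29.4% of all genes were called lower, and 9 were higher with the inhibitor than with DMSO, where 31.9% of all genes were called higher. The 2 counts share the Pt-resistant DMSO libraries, so no agreement between them is read. The largest fall in resistant cells was that of RRM2, a subunit of ribonucleotide reductase (log2 -0.89 ± 0.092), and the largest rise with the inhibitor was that of CCNA2 (cyclin A2, log2 1.33 ± 0.078). The share of counts on the 13 mitochondrial mRNAs was 7.12 ± 1.00% in naive cells, 4.80 ± 0.367% in resistant cells and 7.37 ± 1.04% in treated cells (SD, n = 3). Of the 11 markers of leukocytes, endothelium and fibroblasts, 5 could be tested, of which 1 was higher and 4 were lower in resistant cells and 2 were higher and 2 lower with the inhibitor. The summed level of the 11 was 144 to 162 CPM in the naive, 126 to 133 CPM in the resistant and 95.3 to 112 CPM in the treated libraries. The endothelial cadherin CDH5 moved in the same directions as most SR proteins, at 48.4 ± 6.09, 67.9 ± 7.24 and 46.7 ± 3.48 CPM in naive, resistant and treated cells (SD, n = 3). PECAM1, another endothelial marker, fell in both comparisons, from 95.4 to 57.4 and 43.7 CPM. COL1A1, a fibroblast collagen, was lower in resistant cells and higher with the inhibitor, at 6.94, 3.83 and 10.2 CPM. PTPRC (CD45), the leukocyte marker, had 3 to 7 counts per library in naive, 0 to 1 in resistant and 14 to 22 in treated cells. COL3A1, DCN and CD3E had at most 2 counts in any library. The part of all these measures in the changes of the splicing regulators was not tested.

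Other genes of the splicing pathway are given by list. Beside the counts of these lists, 29.8% of all genes were called higher and 29.4% lower in resistant cells, and 31.9% were called higher and 30.5% lower with the inhibitor. Of 14 exon junction complex and SR-related genes, 9 were higher and 1 lower in resistant cells, and 0 were higher and 6 lower with the inhibitor, counts that share the Pt-resistant DMSO libraries. LUC7L, a U1-associated protein with an SR domain, had the largest changes of that list, at 13.8, 17.1 and 14.4 CPM in naive, 30.8, 23.7 and 28.8 CPM in resistant and 14.3, 11.3 and 14.8 CPM in treated libraries (log2 0.88 ± 0.12 and -1.04 ± 0.12). RBM8A, a core protein of the exon junction complex, fell with the inhibitor (log2 -0.80 ± 0.075). Of 12 tested genes of the 3′ splice site and the U2 snRNP, 4 were higher and 2 lower in resistant cells, a share of higher genes near that of all genes, and 6 were higher and 1 lower with the inhibitor. SF3A3 fell in resistant cells (log2 -0.74 ± 0.087) and rose with the inhibitor (log2 1.06 ± 0.087), SF3B5 rose in resistant cells (log2 0.79 ± 0.08), and SF3B1 rose with the inhibitor (log2 0.60 ± 0.084). U2AF1 had too few counts to test, at 1 to 10 per library. Whether its mRNA was scarce cannot be told from this, because reads without a unique position do not enter the counts.

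Of 7 hnRNP proteins with other symbols, 1 was higher and 2 lower in resistant cells and 1 higher and 4 lower with the inhibitor, where SYNCRIP (hnRNP Q) changed by -0.63 ± 0.073 on the log2 scale. Of 9 genes for import, other kinases and phosphatases, 2 were higher and 3 lower in resistant cells and 1 higher and 5 lower with the inhibitor. PPP1CC, a catalytic subunit of protein phosphatase 1, was the lowest of them in resistant cells (log2 -0.69 ± 0.078). The 10 genes of nonsense-mediated decay had 4 higher and 3 lower in resistant cells and 0 higher and 7 lower with the inhibitor. UPF3B, which links decay to exon junctions, was at 86.5 ± 5.98 CPM in naive, 122 ± 0.7 CPM in resistant and 75.4 ± 3.57 CPM in treated cells (log2 -0.70 ± 0.077 with the inhibitor). Each of these list genes named as having risen or fallen had an edgeR adjusted p under 0.05.

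Most of the regulators have annotated transcripts that are targets of nonsense-mediated decay. GENCODE 29 lists at least 1 such transcript for 34 of the 43 tested members (79.1%), beside 42.6% of the 12666 tested protein-coding genes. All 12 SR proteins and all 4 coactivators had one, as had 5 of the 6 kinases and 13 of the 21 hnRNPs. HNRNPH2, HNRNPA0 and CLK2 were among those without one. A count per gene adds coding, decay-bound and intron-retaining transcripts together, so the values here do not show which transcripts rose or fell.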

How the data were processed

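RNA was measured by RNA-seq in 9 libraries (3 per group). Per the labels and methods, the authors ran FastQC, then STAR with gene counting, and deposited raw whole-number counts per gene. Sources used here do not give versions, genome build, annotation or the strand column taken. Reads with several map positions, or over more than 1 gene, are not counted by STAR. Members were found by stable Ensembl ID (61369 of 61487 genes matched the symbol table). Gene type, length and overlaps came from GENCODE 29, and promoters from RefSeq. In GENCODE 29, 58312 genes matched by stable ID and 35913 by ID with version, so the counts may rest on another release. The members and gene lists were chosen with earlier results of these data known.

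Genes passing filterByExpr (minimum count 10; 14630 genes, 99.88% of counts) were scaled by TMM and fitted together in edgeR 4.0.16 (R 4.3.3) without covariates, with Benjamini-Hochberg adjustment at 0.05 over all of them. The study used DESeq2, which is an alternative here (1.42.0), beside limma-voom (3.58.1). The biological coefficient of variation was 7.66%. Intervals are at 95% confidence. Members with a called change of at least 1.5-fold in the first 2 comparisons are given in every library, and of each other list at most 2 called genes per comparison are named. The method was run on simulated counts in which a small share of genes changed, in equal numbers up and down. In the data most genes were called, so the simulation does not test scaling or calls under that condition. No 2 libraries of a group agreed within sampling noise (chi-square per degree of freedom 5.67 to 12.6). Protein sequences were not analysed here.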

Additional observations from a re-analysis of the deposited data

How the results depend on the processing

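The number of called members was within 1.5 times its value under RLE scaling, library size alone, no filter on low counts, a filter at 1 CPM, DESeq2, limma-voom and fits of only the groups compared. With a minimum of 1.5-fold, called members were 9 (7 higher, 2 lower) in resistant against naive cells, 13 (1 higher, 12 lower) with the inhibitor and 5 (0 higher, 5 lower) in treated against naive cells. Leaving out each library in turn gave 29 to 31 called (20 to 22 higher, 9 to 10 lower), 26 to 33 called (4 to 7 higher, 21 to 26 lower) and 18 to 23 called (5 to 7 higher, 12 to 16 lower). With a library left out, SRPK2, HNRNPLL and HNRNPF lost a call in the first comparison, CLK3, HNRNPD, SRSF3, SRPK2, HNRNPUL1, SRSF11, HNRNPM and HNRNPR in the second, and HNRNPH1, HNRNPU, SRSF1, SRPK1, SRSF5, HNRNPUL1, SRSF10 and HNRNPAB in the third. The cause was not tested.

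Wells share only a number. Deviations of same-numbered wells correlated at -0.076 to 0.0995 over 9 pairs, beside -0.112 to 0.078 over 18 other pairs. With the replicate block, called members were 31, 33 and 23, and no call was lost.

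No called member changed its sign under any of these settings. Among members not called, the sign turned for values near 0. With library size alone, HNRNPH3 changed by -0.0090, -0.033 and -0.042 on the log2 scale in the 3 comparisons, and TRA2B by -0.021 and HNRNPA1 by -0.029 in the third. For the inhibitor HNRNPH3 was at -0.00055 without a low-count filter, -0.00014 in DESeq2, -0.0015 in limma-voom and -0.0047 with only the groups compared. With a library left out, log2 fold changes in resistant against naive cells ran from -0.025 to 0.054 for HNRNPH3, -0.18 to 0.0036 for SRRM2 and -0.15 to 0.072 for HNRNPL. For the inhibitor they ran from -0.00079 to 0.11 for HNRNPH1, -0.052 to 0.052 for HNRNPH3 and -0.14 to 0.082 for HNRNPL. In treated against naive cells they ran from -0.097 to 0.0065 for SRPK2, -0.083 to 0.027 for HNRNPK, -0.032 to 0.070 for HNRNPH3, -0.042 to 0.073 for HNRNPA1, -0.055 to 0.19 for HNRNPA1L3 and -0.15 to 0.0041 for HNRNPL. Depth limits SRSF12 and HNRNPA1L3 most, the members with the fewest counts.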

Other observations

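Outside the protein-coding members, the table holds 123 pseudogenes of the same families. Of these, 50 had 0 counts in all libraries and 1, HNRNPKP4, passed the filter on low counts. HNRNPKP4 was at 1.36, 1.24 and 1.51 CPM in the naive libraries, 2.83, 2.45 and 2.55 CPM in the Pt-resistant libraries and 1.66, 1.80 and 2.03 CPM in the inhibitor-treated libraries, and it rose 1.89-fold in resistant cells (log2 0.92 ± 0.23, edgeR adjusted p = 0.00177). With the inhibitor its log2 fold change was -0.51 ± 0.22 (edgeR adjusted p = 0.0521). Pseudogenes took 0.0619% of the counts on members and pseudogenes together. HNRNPD-DT, a divergent non-coding transcript beside HNRNPD, was at 0.432 ± 0.245 CPM in naive, 0.389 ± 0.115 CPM in resistant and 0.888 ± 0.114 CPM in treated cells, with at most 15 counts in any library. It was called higher with the inhibitor than with DMSO (log2 1.19 ± 0.43, edgeR adjusted p = 0.0186). Treated cells were also above naive ones (log2 1.01 ± 0.43, edgeR adjusted p = 0.0437). Resistant against naive cells gave no call (edgeR adjusted p = 0.772).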
